A study of Homo sapiens with 6 samples.

Results

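The DDX and DHX genes encode the large helicase families that are named after the residues of a conserved ATPase motif, DEAD and DEAH among them. They were taken from the deposited FPKM table as the protein-coding genes whose symbol is DDX or DHX followed by a digit, which gave 56 of 27420 listed genes, 40 with DDX and 16 with DHX symbols. A673 and SKNMC are established cell lines of Ewing sarcoma, a tumour driven by a fusion of EWS with an ETS factor. THZ1, a covalent inhibitor of the transcription kinase CDK7, was given to either line at 50 nM or at 200 nM, and control cells got DMSO, its vehicle. RNA was sequenced after 6 h. Apart from THZ1 the 3 groups of a line share medium, serum and time, and no other agent or engineered allele is named in the labels. The doses were chosen in the study to give limited and substantial loss of RNA polymerase II phosphorylation.

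There was 1 library for each of the 6 conditions, so replicate error is unknown and no test was made. FPKM counts fragments per length of transcript and relative to all fragments of a library, so that levels can be compared between genes. Changes are given as log2((FPKM + 1) / (FPKM + 1 of DMSO)), and a gene was called decreased or increased at a change of at least 2-fold. Changes were read for active members, those above 1 FPKM in the DMSO library of the line, which were 49 in A673 and 50 in SKNMC. The DMSO value thus sets both the choice of members and the change, for these genes and for the active protein-coding genes they are read against. The members just above and below this limit in SKNMC were DHX58 at 1.10 FPKM and DDX60 at 0.993 FPKM. In A673 they were DDX60L at 1.87 FPKM and DHX58 at 0.350 FPKM.

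RNA helicases use ATP to unwind short RNA duplexes, to strip proteins from RNA or to clamp onto it, and nearly every step in the life of an RNA has its own. DEAD-box proteins mostly open short duplexes locally, whereas DEAH-box proteins move along a strand, as the remodelling ATPases of the spliceosome do. Many act in the nucleolus, where the subunits of the ribosome are made, and others in export, translation, decay and antiviral sensing of RNA. FPKM of bulk RNA gives relative levels, so fewer cells and less RNA per cell cannot be told apart, nor can a change of all transcripts in a cell be seen.

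All 6 Ewing sarcoma markers looked at were present in every library, the lowest being NKX2-2 at 3.60 FPKM in A673 with 200 nM THZ1. Of markers of other cell types, EPCAM, ALB and MYOD1 were under 1 FPKM everywhere. PECAM1 was looked for but not found by symbol among the listed protein-coding genes. The leukocyte gene PTPRC was at 10.2, 7.90 and 13.1 FPKM in the SKNMC libraries and at most 0.0291 FPKM in A673. Whether the PTPRC signal touches any helicase value was not tested. The translation factor EEF1A1 was at 4400 FPKM in SKNMC with DMSO but has a 0 in the table for either dose, so a 0 is given here only as listed at 0. The absolute depth is unknown, and a rough estimate from low values put the THZ1 libraries at 88.6% to 96.3% of the depth of their DMSO library.

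Promoter letters, which the rule did not use, were counted as a description. Among 7 short motifs searched on both strands in RefSeq windows from 250 bases before to 50 bases after the gene start (GRCh38.p14), CCGGAAG, the core that many ETS factors are known to bind, was in a window of 23 of the 45 active members that had one, or 51.1%. It was in 24.9% of 8658 active protein-coding genes, in 12.2% of all 27305 genes with a RefSeq window and in 10.3% of 35116 windows. The other motifs differed from the active genes by fewer percentage points, with GGGCGG at 64.4% against 79.1%, CCAAT at 48.9% against 43.9%, CACGTG at 20% against 13.3%, TGACGTCA at 11.1% against 4.05%, TATAAA at 8.89% against 7.66% and GGAAGGAA at 6.67% against 4.68%. A match is a run of letters and not a shown binding site, and 51 of the 56 members were matched to a window by symbol or else by synonym. The 250 bases before the start are shown for the neighbours DDX50 and DDX21, whose transcripts differed in change, for DDX56 and DHX16, which were both called decreased in SKNMC at each dose, and for DHX32, one of the members with the largest decrease, whose only window lacks these letters. The sequences run 5′ to 3′ on the strand of the gene, and capitals mark CCGGAAG or its reverse complement.
DDX50, chr10:68901065-68901314, plus strand: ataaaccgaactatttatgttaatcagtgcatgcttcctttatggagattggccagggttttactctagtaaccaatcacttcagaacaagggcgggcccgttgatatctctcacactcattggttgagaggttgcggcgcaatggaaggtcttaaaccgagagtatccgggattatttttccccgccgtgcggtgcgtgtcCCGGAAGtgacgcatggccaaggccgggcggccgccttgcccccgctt
DDX21, chr10:68955920-68956169, plus strand: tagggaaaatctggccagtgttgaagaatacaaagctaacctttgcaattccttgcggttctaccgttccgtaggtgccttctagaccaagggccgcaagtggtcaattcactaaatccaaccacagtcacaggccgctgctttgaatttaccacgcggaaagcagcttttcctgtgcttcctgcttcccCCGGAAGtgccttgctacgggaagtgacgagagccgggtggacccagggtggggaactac
DDX56, chr7:44573909-44574158, minus strand: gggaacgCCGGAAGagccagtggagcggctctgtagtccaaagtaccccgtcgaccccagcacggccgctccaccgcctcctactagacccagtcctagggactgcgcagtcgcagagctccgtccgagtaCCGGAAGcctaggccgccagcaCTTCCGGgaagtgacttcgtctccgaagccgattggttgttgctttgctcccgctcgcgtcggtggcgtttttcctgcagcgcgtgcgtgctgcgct
DHX16, chr6:30673007-30673256, minus strand: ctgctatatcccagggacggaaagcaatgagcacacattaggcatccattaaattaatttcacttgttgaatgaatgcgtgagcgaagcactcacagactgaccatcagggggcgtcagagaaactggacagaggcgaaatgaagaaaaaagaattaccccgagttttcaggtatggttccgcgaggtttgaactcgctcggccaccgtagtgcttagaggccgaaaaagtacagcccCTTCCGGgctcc
DHX32, chr10:125881293-125881542, minus strand: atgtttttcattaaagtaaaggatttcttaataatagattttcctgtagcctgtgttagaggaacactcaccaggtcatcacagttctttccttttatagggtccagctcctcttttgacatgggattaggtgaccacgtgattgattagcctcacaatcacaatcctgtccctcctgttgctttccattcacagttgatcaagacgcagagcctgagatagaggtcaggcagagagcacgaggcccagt

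In these runs the letters begin 48 bases before the start in DDX50, 60 in DDX21 and 12 in DHX16. DDX56 holds them 3 times, at 97, 119 and 243 bases. By role they were in a window of 7 of 12 ribosome biogenesis members, 5 of 10 spliceosome members and 3 of 4 export members, and of none of the 4 germ line and 3 sensor members with a window. In A673 active members had median log2 fold changes of -0.42 with and -0.38 without the letters at 50 nM and of -0.74 and -0.52 at 200 nM. In SKNMC these medians were -0.46 and -0.27 at 50 nM and -0.88 and -0.61 at 200 nM. The medians of all protein-coding genes with and without the letters at 50 nM were -0.34 and -0.25 in A673 and -0.38 and -0.30 in SKNMC, and those at 200 nM -0.44 and -0.38 in A673 and -0.64 and -0.55 in SKNMC. In A673 3 of 23 members with and 4 of 22 without the letters were called decreased at 50 nM, and 7 and 6 at 200 nM. For all protein-coding genes these shares were 18.9% and 14.9%, then 27.6% and 25%. In SKNMC 5 of 23 and 2 of 22 were called at 50 nM, and 10 and 7 at 200 nM. There the shares of all genes were 18.6% and 14.6%, then 30.8% and 27.4%.

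With DMSO the helicases were abundant transcripts in both lines. Their median was 26.9 FPKM in A673 and 20.6 FPKM in SKNMC, against 14.6 and 14 FPKM over the active protein-coding genes. DDX5, a coregulator of transcription and splicing, led both lines at 316 FPKM in A673 and 286 FPKM in SKNMC. It was followed by DDX39B, an ATPase of mRNA export, at 239 and 281 FPKM, while the third was DDX3X, a translation helicase, at 173 FPKM in A673 and 159 FPKM in SKNMC. Next came DDX21 at 155 FPKM and DHX9 at 123 FPKM in A673, and DDX17 at 128 FPKM and DHX9 at 119 FPKM in SKNMC. At the other end the germ line members DDX43 and DDX53 are listed at 0 in all 6 libraries, DDX4 is listed at 0 in 4 of 6, and DDX25 did not pass 0.485 FPKM.

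The levels of 49 members active in both lines ranked alike in A673 and SKNMC with DMSO (Spearman 0.94 across genes, against 0.87 over 10383 protein-coding genes), which is given as a description since genes are not replicates. Of the 50 members active in either line, 2 were at least 2-fold higher in A673, where 8.38% of protein-coding genes were, and 1 was at least 2-fold lower, where 14.7% were. DHX32 was at 16.6 FPKM in A673 and 5.90 FPKM in SKNMC, a log2 difference of 1.35. DDX21, a nucleolar helicase that links polymerase I and II transcription to rRNA processing, was at 155 and 75.4 FPKM, a log2 difference of 1.03. DHX8, the spliceosomal ATPase that releases the mature mRNA, was lower in A673 at 7.82 against 19.6 FPKM, a log2 difference of -1.23. That split of 2 higher and 1 lower became 1 and 1 with scaling to the 75th percentile, 2 and 2 with a pseudocount of 0.1, and 11 and 0 with scaling to the ribosomal protein genes.

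**Figure D1:**
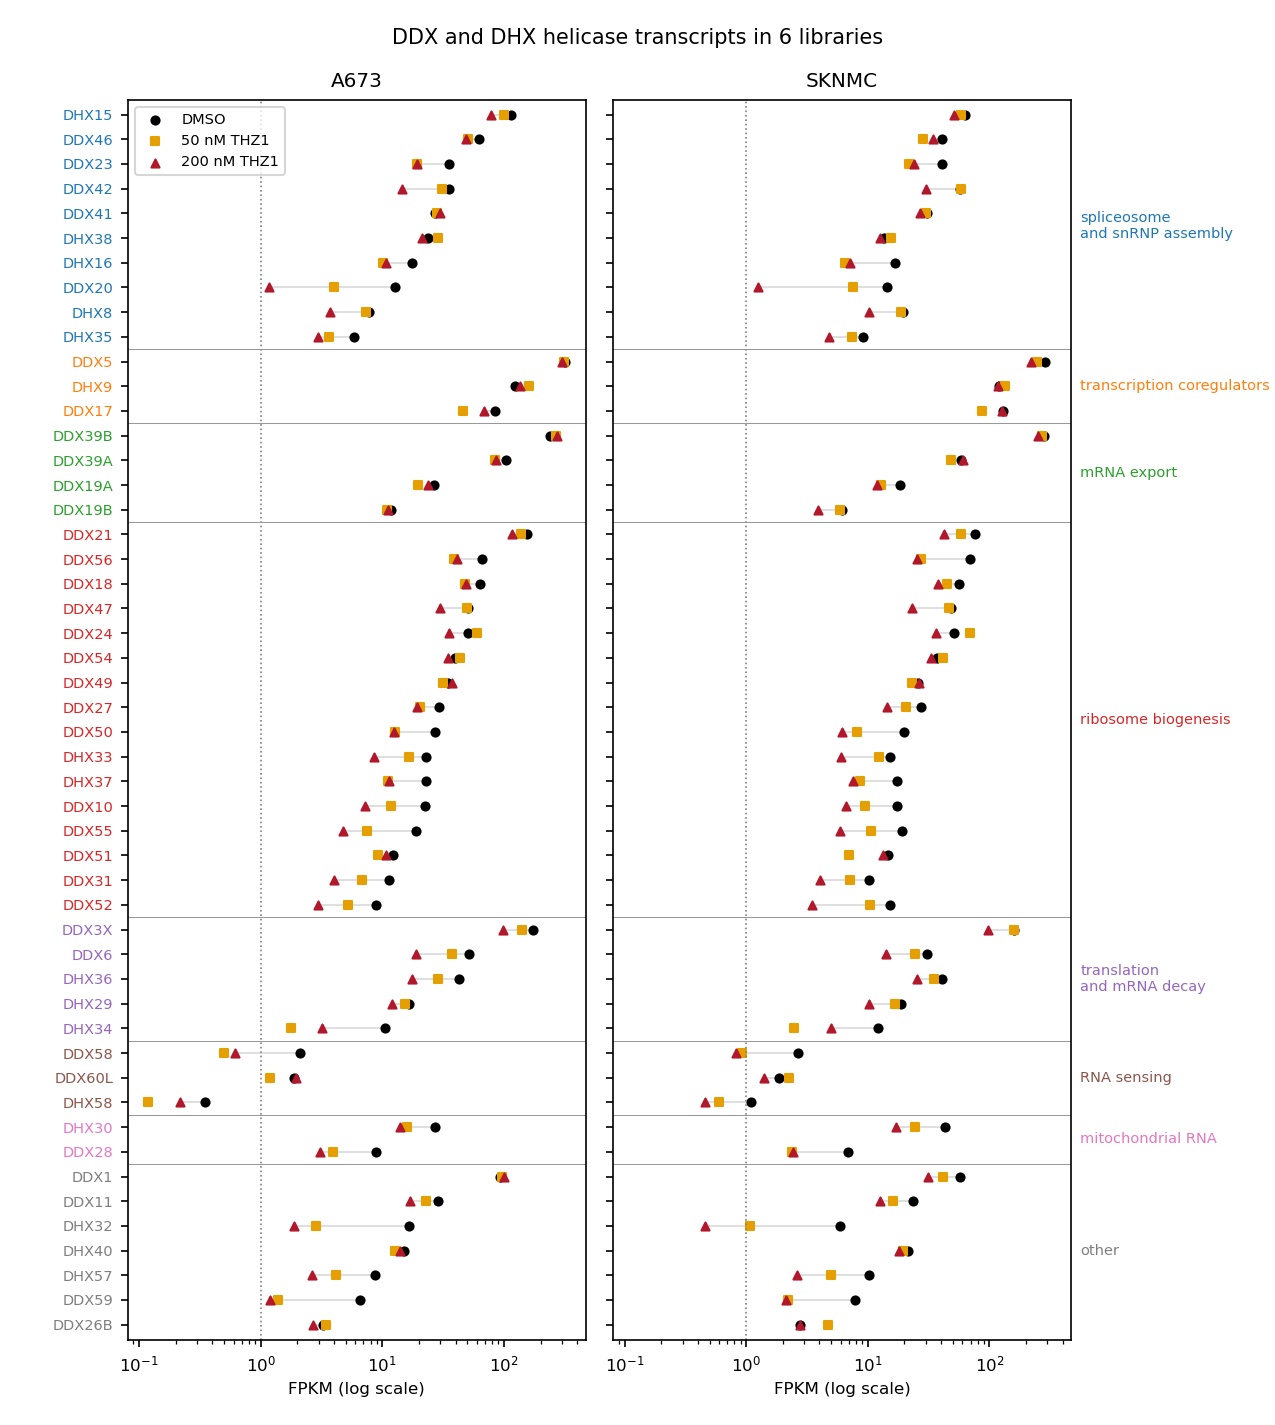
FPKM of the 50 helicase genes active in at least 1 line, on a log scale, in A673 (left) and SKNMC (right), grouped by role, with 1 library per point (circle DMSO, square 50 nM THZ1, triangle 200 nM THZ1) and a dotted line at 1 FPKM. DDX20 reached 1.17 and 1.24 FPKM at 200 nM, whereas DDX5 stayed above 200 FPKM in all 6 libraries.

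After THZ1 the share of the helicases in all protein-coding FPKM was lower in each line, at 0.523%, 0.463% and 0.407% in A673 and 0.472%, 0.400% and 0.340% in SKNMC with DMSO, 50 nM and 200 nM. At 50 nM 7 of 49 active members were called decreased in A673, where 15.8% of active protein-coding genes were, and 7 of 50 in SKNMC, where 15.6% were. At 200 nM the counts were 15 of 49 in A673, against 25.4% of protein-coding genes, and 19 of 50 in SKNMC, against 27.6%. No member was called increased at either dose, where 0.305% and 0.12% of genes were in A673 and 0.442% and 0.39% in SKNMC.

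On the log2 scale the members had a median change of -0.39 in A673 at 50 nM, against -0.27 for all active protein-coding genes, and -0.69 against -0.39 at 200 nM. In SKNMC it was -0.38 against -0.32 at 50 nM and -0.82 against -0.55 at 200 nM. These medians stayed negative under all scalings tried, and the members' median less that of all genes was -0.13, -0.29, -0.060 and -0.26 in the same order. The share of members called at 50 nM was thus near that of all genes, while at the higher dose 30.6% of members were called in A673 and 38% in SKNMC. With scaling to the 75th percentile the SKNMC share at 200 nM was 14% of members and 13.7% of genes. At a threshold of 1.5-fold 18 and 26 members were decreased in A673 at 50 and 200 nM, where 31.6% and 41.1% of genes were, and 16 and 31 in SKNMC, where 33.2% and 48.4% were. In contrast, 28 of 49 members were called in none of the 4 comparisons, where 62.6% of genes were, and 15 stayed within 1.5-fold of DMSO in all 4, where 35.7% did. By any amount, 37 of 49 members were lower in all 4 comparisons, where 52.8% of genes were, and 0 were higher in all 4, where 10.1% of genes were. With the 75th percentile scaling, chosen after the data were seen for these counts, they were 21 and 9, where 32.4% and 26.6% of genes were.

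**Figure D2:**
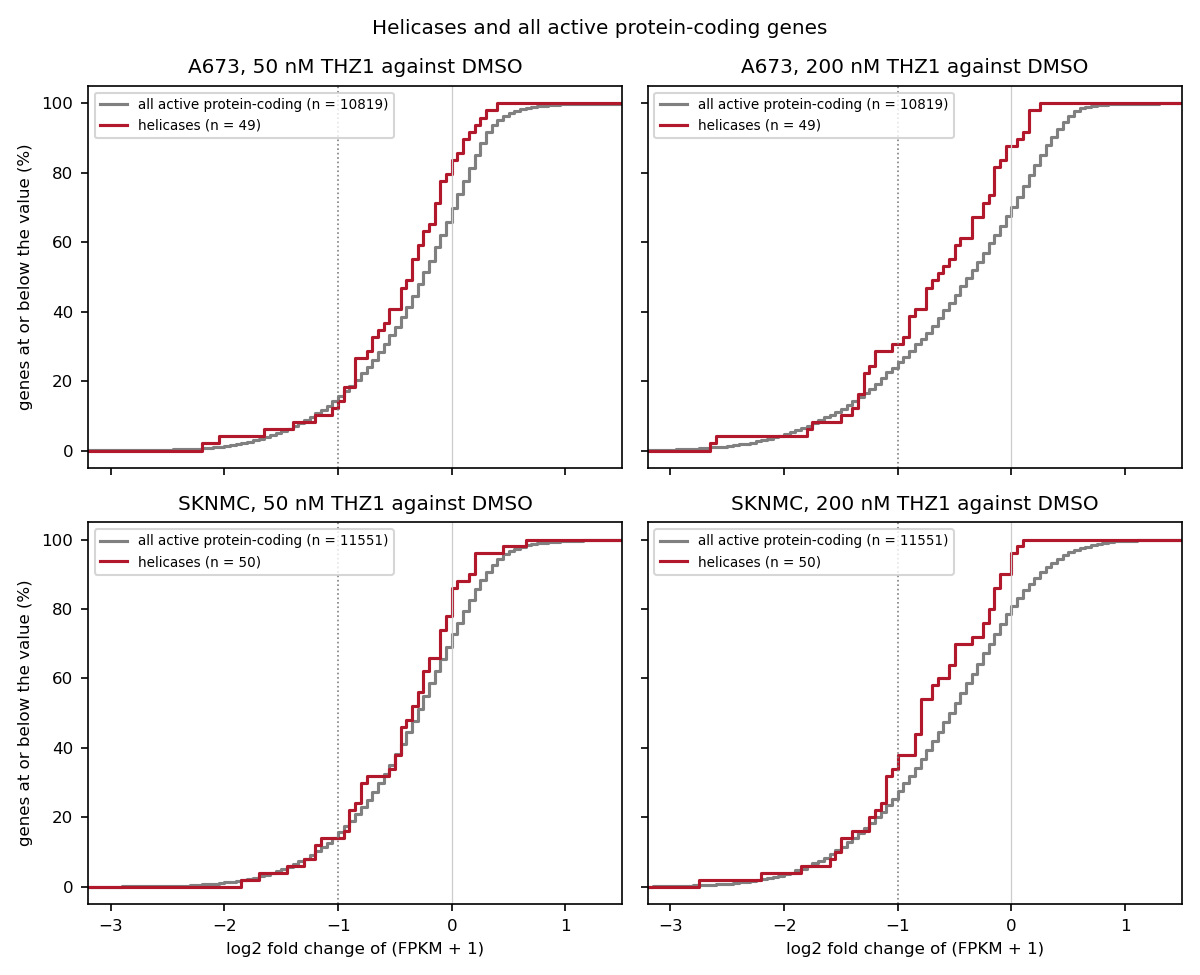
Cumulative share of genes (%) at or below each log2 fold change of (FPKM + 1) for the helicases (red) and all active protein-coding genes (grey), with a dotted line at a 2-fold decrease. The red curve lies left of the grey one over most of its course at 200 nM, with medians of -0.69 and -0.39 in A673 and -0.82 and -0.55 in SKNMC.

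DHX32, DHX34, DDX59 and DDX50 were called decreased in both lines at both doses, 4 of 49 members, where 8.7% of genes were. DHX32 (hg19 chromosome 10, 127524905 to 127585005, minus strand) is a DEAH-box protein whose RNA substrate is not established. It went from 16.6 FPKM with DMSO to 2.82 and 1.88 FPKM at 50 and 200 nM in A673, or 17.0% and 11.3% of DMSO. In SKNMC it went from 5.90 to 1.07 and 0.460 FPKM, or 18.1% and 7.80% of DMSO. All of its THZ1 libraries thus lay far below DMSO, with log2 fold changes between -2.62 and -1.74. BCCIP, which overlaps 28.9% of its span on the other strand, was at 77.4, 64.0 and 66.1 FPKM in A673 and at 44.7, 38.7 and 30.1 FPKM in SKNMC; whether strand was used in counting is not stated.

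DHX34 (chromosome 19, 47852537 to 47885961, plus strand), a factor of nonsense-mediated decay, was lower at the smaller dose than at the larger one. Its levels were 10.4, 1.76 and 3.19 FPKM in A673 and 12, 2.49 and 5.00 FPKM in SKNMC with DMSO, 50 nM and 200 nM. In log2 terms the changes were -2.05 and -1.45 in A673 and -1.90 and -1.12 in SKNMC, so that 200 nM lay above 50 nM by 0.60 and 0.78. DDX59 (chromosome 1, 200593023 to 200639097, minus strand), which is linked to oro-facial-digital syndrome, was at 6.52, 1.39 and 1.19 FPKM in A673 and at 7.83, 2.20 and 2.11 FPKM in SKNMC. Its THZ1 libraries hardly differed by dose, with log2 fold changes of -1.66 and -1.78 in A673 and -1.46 and -1.50 in SKNMC.

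At 200 nM 13 of 49 members were called decreased in both lines, where 20.6% of genes were. Besides the previous 4 they were DDX6, DDX10, DDX20, DDX28, DDX31, DDX52, DDX55, DHX33 and DHX57. Of these, 6 were called at 200 nM and at 50 nM in neither line, where 8.31% of genes showed that pattern: DDX6, DDX10, DDX31, DDX52, DHX33 and DHX57. DHX57, a large DEAH-box protein with little known function, was at 8.63, 4.18 and 2.66 FPKM in A673 and 10.3, 4.95 and 2.60 FPKM in SKNMC. At 50 nM DHX57 was already at 48.5% of DMSO in A673 and 48.2% in SKNMC. Its log2 fold changes there, -0.89 and -0.92, fell short of the call only through the added 1.

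**Figure D3:**
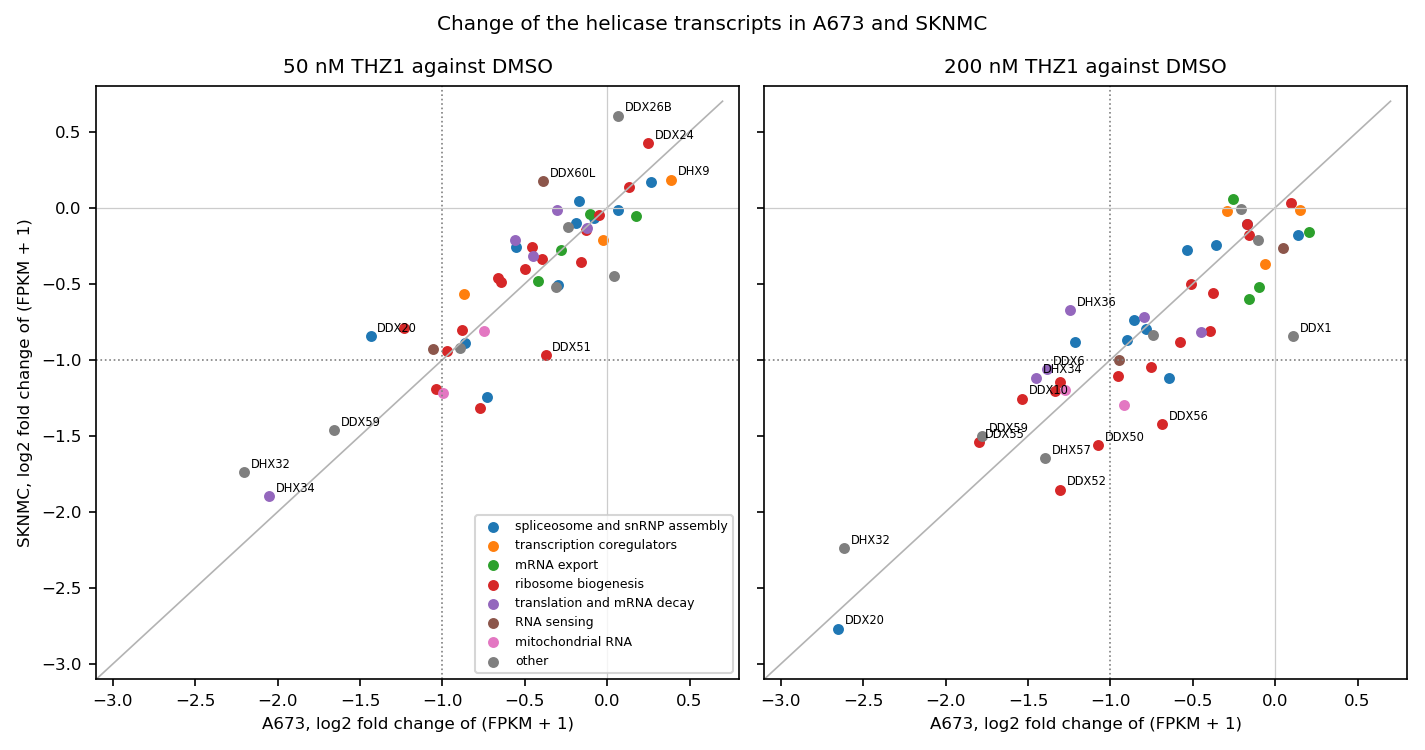
Log2 fold change of (FPKM + 1) in A673 (x axis) and SKNMC (y axis) for 49 helicases active in both lines at 50 nM (left) and 200 nM THZ1 (right), coloured by role, with dotted lines at a 2-fold decrease and a diagonal of equal change. DHX32, DHX34 and DDX59 lie far down the diagonal at 50 nM, DDX20 and DHX32 at 200 nM, and DDX1 stands off it at 200 nM by 0.95.

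Among the 10 members of the spliceosome and of snRNP assembly, 1 was called decreased in each line at 50 nM and 2 at 200 nM, where 15.8% and 15.6% of genes were in A673 and SKNMC at the lower dose and 25.4% and 27.6% at the higher. DDX20 (chromosome 1, 112297866 to 112310638, plus strand), also called Gemin3, is a subunit of the SMN complex, which loads Sm rings onto the small nuclear RNAs. It was at 12.6, 4.03 and 1.17 FPKM in A673 and at 14.3, 7.51 and 1.24 FPKM in SKNMC. At 200 nM it stood at 9.25% of DMSO in A673 and 8.70% in SKNMC. With 1 added to each FPKM its log2 fold changes, -2.65 and -2.77, were the lowest of the family in either line. As a plain share of DMSO, DHX32 was lower in SKNMC at 7.80%. Between the doses DDX20 differed by -1.22 in A673 and -1.92 in SKNMC, the largest decrease from 50 to 200 nM among the members of either line.

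DDX42, a helicase of the early spliceosome, separated the doses too. It was at 35.2, 31.2 and 14.6 FPKM in A673 and at 57.0, 58.7 and 30.4 FPKM in SKNMC, or -1.21 and -0.89 in log2 terms at 200 nM. DHX8 was at 7.82, 7.34 and 3.72 FPKM in A673 and at 19.6, 18.7 and 10.3 FPKM in SKNMC, close to DMSO at 50 nM and near the 2-fold limit at 200 nM. DHX16, the ATPase of spliceosome activation, was at 17.5, 10.2 and 10.8 FPKM in A673 and at 16.7, 6.49 and 7.15 FPKM in SKNMC, past the limit in SKNMC at both doses. DHX38, which remodels the spliceosome before the second step, was above DMSO at 50 nM and below it at 200 nM in both lines, at 23.8, 28.8 and 21.0 FPKM in A673 and 13.7, 15.5 and 12.6 FPKM in SKNMC.

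The core members DHX15, which takes apart the spent spliceosome, and DDX46 stayed within 1.5-fold of DMSO in all 4 comparisons. DHX15 was at 114, 100.3 and 78.7 FPKM in A673 and at 62.9, 58.5 and 51.6 FPKM in SKNMC. DDX23, a helicase of the U5 snRNP, was at 35.5, 19.1 and 19.2 FPKM in A673 and 41.1, 21.8 and 24.2 FPKM in SKNMC, below DMSO by 0.74 to 0.89 on the log2 scale in every THZ1 library. DHX35 was at 5.84, 3.66 and 2.98 FPKM in A673 and at 9.12, 7.47 and 4.81 FPKM in SKNMC. At 50 and 200 nM the group's median lay at -0.24 and -0.71 in A673 and at -0.18 and -0.77 in SKNMC.

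Of the 16 ribosome biogenesis members, 2 were called decreased at 50 nM in each line, 6 at 200 nM in A673 and 9 at 200 nM in SKNMC. At 50 nM 15.8% and 15.6% of genes were called, near the 12.5% of the group. At 200 nM 25.4% of genes were in A673 and 27.6% in SKNMC. With scaling to the 75th percentile 7 of all 50 members, or 14%, were called in SKNMC at 200 nM, where 13.7% of genes were. The count of 9 thus depends on the scaling. The group medians were -0.48 and -0.72 in A673 and -0.43 and -1.08 in SKNMC. DDX55, which acts on the large subunit, was at 19.0, 7.51 and 4.75 FPKM in A673 and at 19.0, 10.5 and 5.86 FPKM in SKNMC, down to 25% and 30.9% of DMSO at 200 nM. DDX52 was at 8.80, 5.26 and 2.97 FPKM in A673 and at 15.1, 10.5 and 3.45 FPKM in SKNMC. DDX10 was at 22.6, 11.8 and 7.14 FPKM and at 17.2, 9.43 and 6.62 FPKM. All 3 stepped down from DMSO to 50 nM and again to 200 nM in each line.

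DDX31 and DHX33 followed the same order. DDX31 was at 11.4, 6.85 and 4.02 FPKM in A673 and at 10.2, 7.14 and 4.06 FPKM in SKNMC. DHX33 was at 23.1, 16.6 and 8.52 FPKM in A673 and at 15.1, 12.5 and 6.00 FPKM in SKNMC, and overlaps the abundant C1QBP on the same strand over 28.1% of its span. DDX56 and DHX37 differed little between the doses: DDX56 was at 66.5, 38.5 and 40.9 FPKM in A673 and at 69.2, 27.2 and 25.2 FPKM in SKNMC. DHX37, which frees the U3 snoRNA from the small subunit precursor, was at 22.8, 11.1 and 11.3 FPKM in A673 and at 17.5, 8.59 and 7.59 FPKM in SKNMC.

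The remaining nucleolar members varied in their pattern over the doses. DDX49 was at 34.8, 31.7 and 37.3 FPKM in A673 and at 25.9, 23.3 and 26.5 FPKM in SKNMC, and DDX54 at 39.2, 43.1 and 35.0 FPKM and at 37.4, 41.2 and 32.9 FPKM. DDX24 was above DMSO at 50 nM and below it at 200 nM in both lines, at 50.9, 60.6 and 35.4 FPKM in A673 and at 51.6, 69.6 and 36.2 FPKM in SKNMC. DDX47 kept 96.5% and 96.7% of DMSO at 50 nM in A673 and SKNMC and 58.5% and 47.3% at 200 nM, and lies within APOLD1 on the same strand over nearly all of its span. DDX51 was lower at 50 nM than at 200 nM, at 12.2, 9.17 and 10.7 FPKM in A673 and at 14.6, 6.95 and 13.4 FPKM in SKNMC, and had the largest gap between the lines at 50 nM, 0.60 in log2 terms.

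**Figure D4:**
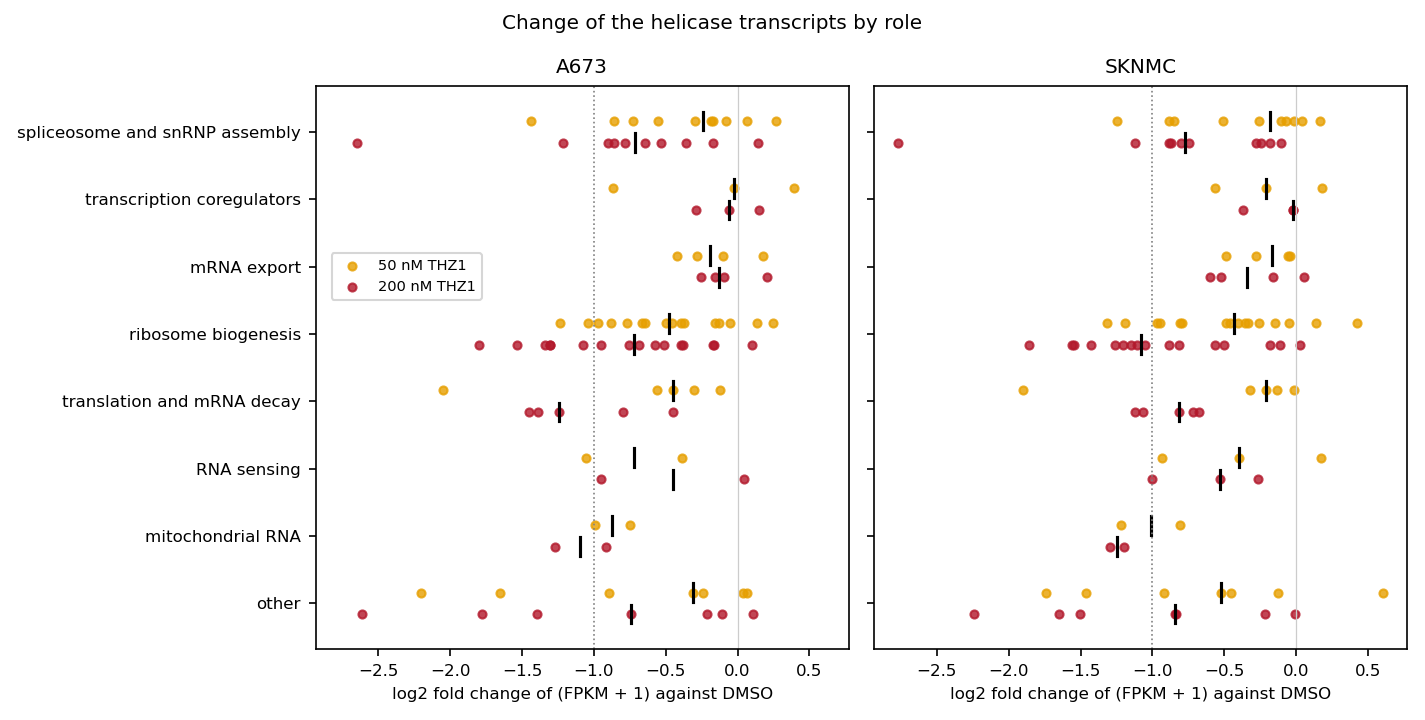
Log2 fold change of (FPKM + 1) against DMSO of every active helicase by role in A673 (left) and SKNMC (right), at 50 nM (orange) and 200 nM THZ1 (red), with black bars at the medians and a dotted line at a 2-fold decrease. The coregulators and export members stay right of that line in all 4 comparisons. All of these but DDX19A and DDX19B were above 50 FPKM with DMSO. In SKNMC at 200 nM 9 of 16 ribosome biogenesis members lie on or left of that line, where 27.6% of all genes do. With scaling to the 75th percentile 7 of all 50 helicases were decreased at least 2-fold there, or 14%, where 13.7% of genes were.

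None of the 3 transcription coregulators and 4 export members was called decreased or increased in any comparison, and 62.6% of genes active in both lines were called decreased in none. All of these members but DDX19A and DDX19B were above 50 FPKM with DMSO in both lines. Among all genes above 50 FPKM, 4.32% and 8.69% were called decreased in A673 at 50 and 200 nM. In SKNMC 5.15% and 13.3% of such genes were. DDX5 was at 316, 310.0 and 302 FPKM in A673 and at 286, 247 and 221 FPKM in SKNMC. DHX9 (chromosome 1, 182808503 to 182856886, plus strand), also called RNA helicase A, was at 123, 161 and 136 FPKM in A673 and at 119, 135 and 118 FPKM in SKNMC. It was the member furthest above DMSO in A673 at 50 nM, with a log2 fold change of 0.39. In SKNMC that was DDX26B, also known as INTS6L, at 2.78, 4.75 and 2.77 FPKM, with a log2 fold change of 0.60 at 50 nM. Members were taken by symbol alone, and whether DDX26B or any other member has helicase activity was not checked.

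Close relatives differed in level and in change. DDX17, the partner of DDX5, was at 84.9, 46.1 and 69.1 FPKM in A673 and at 128, 86.5 and 127 FPKM in SKNMC, lowest at 50 nM in both lines. DDX5 and DDX17 thus differed in shape, with log2 fold changes at 50 nM of -0.027 and -0.87 in A673 and of -0.21 and -0.56 in SKNMC. The neighbours DDX21 (chromosome 10, 70715883 to 70744829) and DDX50 (70661033 to 70706603, both on the plus strand) are also paralogs. DDX21 was at 155, 139 and 117 FPKM in A673 and at 75.4, 58.6 and 42.5 FPKM in SKNMC. DDX50 was at 27.3, 12.7 and 12.4 FPKM in A673 and at 20.0, 8.19 and 6.12 FPKM in SKNMC. At 50 nM DDX50 kept 46.7% and 40.9% of DMSO in A673 and SKNMC, and DDX21 kept 89.7% and 77.7%. Both have CCGGAAG within the printed 250 bases.

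DDX39A was at 103, 85.0 and 86.4 FPKM in A673 and at 58.5, 48.0 and 60.9 FPKM in SKNMC, and DDX39B at 239, 270.0 and 275 FPKM and at 281, 271 and 251 FPKM. DDX39B lies within the listed readthrough gene ATP6V1G2-DDX39B, which did not pass 3.0 FPKM. DDX19A, which acts at the nuclear pore, was at 26.7, 19.7 and 23.8 FPKM in A673 and at 18.4, 12.9 and 11.8 FPKM in SKNMC. DDX19B was at 11.9, 11.0 and 11.0 FPKM in A673 and at 6.08, 5.89 and 3.93 FPKM in SKNMC. Reads shared by such near-identical copies may have been split between them, so the levels of single export members are uncertain. The listed protein-coding gene RP11-529K1.3 overlaps 79.1% of the span of DDX19B and 73.2% of that of DDX19A on the same strand. RP11-529K1.3 was at 2.39, 3.11 and 3.48 FPKM in A673 and at 1.26, 1.41 and 0.891 FPKM in SKNMC.

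**Figure D5:**
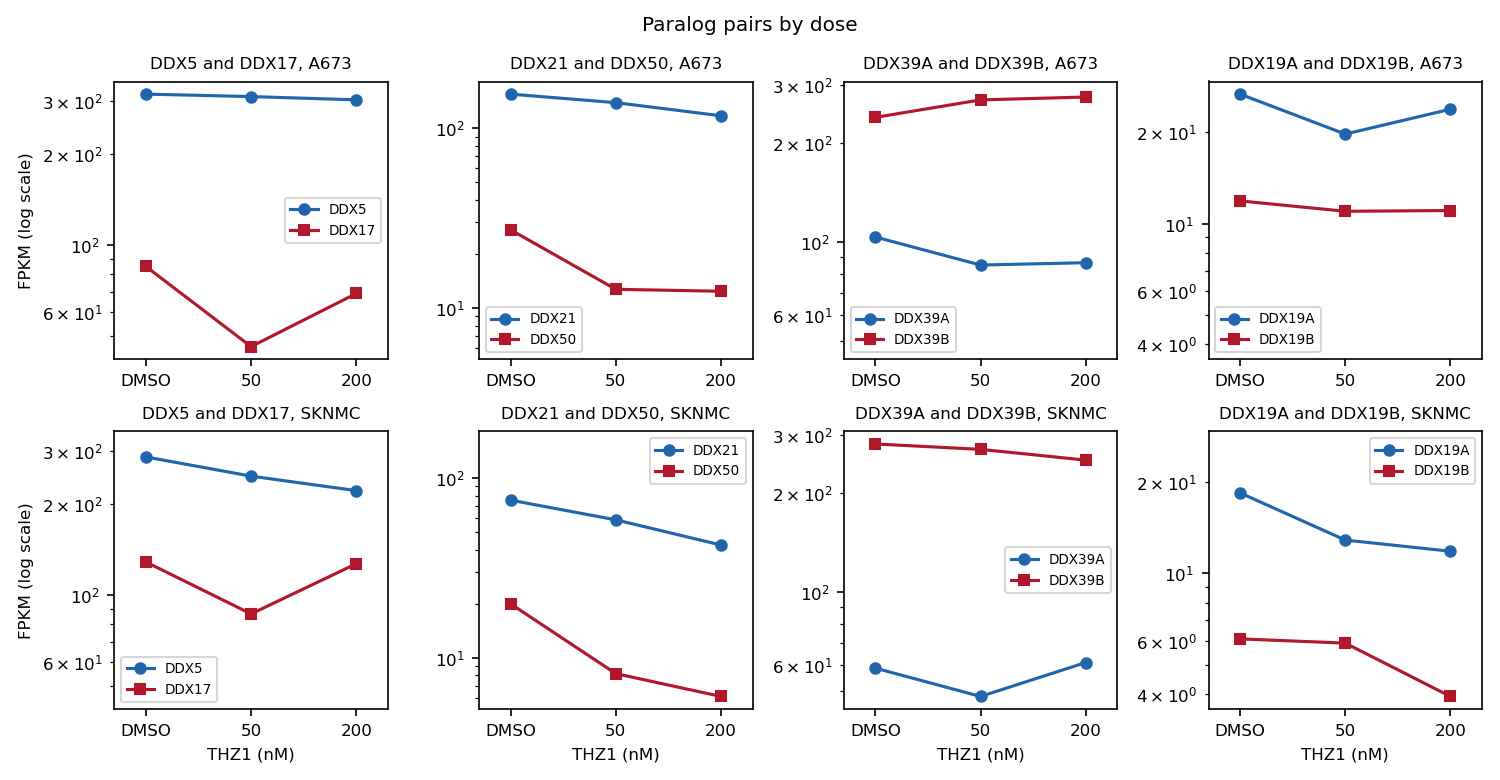
FPKM on a log scale against THZ1 dose (DMSO, 50 nM and 200 nM) for 4 pairs of related helicases, with A673 in the top row and SKNMC in the bottom row and 1 library per point. DDX50 steps down at 50 nM while DDX21 declines by less, and DDX17 has its lowest value at 50 nM in both lines.

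The translation and decay group had 5 active members. 1 of them was called decreased at 50 nM in each line, and at 200 nM 3 were in A673 and 2 in SKNMC. In the same order 15.8%, 15.6%, 25.4% and 27.6% of genes were. DDX6, the decapping partner of P-bodies, was at 51.2, 37.1 and 18.9 FPKM in A673 and at 30.7, 24.4 and 14.2 FPKM in SKNMC. DHX36, which unwinds G-quadruplexes, was at 42.7, 28.7 and 17.4 FPKM and at 41.1, 35.3 and 25.3 FPKM. DDX3X was at 173, 140 and 98.9 FPKM in A673 and at 159, 158 and 96.5 FPKM in SKNMC, and DHX29, a factor of scanning ribosomes, at 16.7, 15.3 and 11.9 FPKM and at 18.6, 16.9 and 10.1 FPKM. All of these but DHX34 were lower at 200 nM than at 50 nM in both lines.

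Both members that act on mitochondrial RNA were below DMSO in every THZ1 library. DDX28 was at 8.85, 3.95 and 3.08 FPKM in A673 and at 6.88, 2.39 and 2.44 FPKM in SKNMC, and lies wholly within DUS2 on the other strand, which was itself at 8.09, 2.05 and 3.30 FPKM and at 3.55, 0.331 and 1.22 FPKM. DHX30 was at 27.3, 15.8 and 14 FPKM in A673 and at 43.2, 24.2 and 17.0 FPKM in SKNMC. The sensors were low throughout. DDX58, known as RIG-I, was at 2.11, 0.499 and 0.612 FPKM in A673 and at 2.66, 0.916 and 0.827 FPKM in SKNMC, with log2 fold changes between -1.05 and -0.93 that 1 added to such low values makes smaller. DDX60L was at 1.87, 1.19 and 1.96 FPKM in A673 and at 1.88, 2.24 and 1.40 FPKM in SKNMC, and DHX58 did not pass 1.10 FPKM nor DDX60 0.993 FPKM in any library. PALLD overlaps 22.5% of the span of DDX60L on the other strand. PALLD was at 17.8, 15.8 and 16.8 FPKM in A673 and at 15.9, 12.6 and 20.4 FPKM in SKNMC, and strand use in counting is not stated.

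The doses were also compared with each other, through libraries that do not include DMSO. Between 50 and 200 nM 2 members in A673, DDX20 and DDX42, and 3 in SKNMC, DDX20, DDX47 and DDX52, were at least 2-fold lower, where 7.53% and 8.61% of genes were. At 200 against 50 nM 31 of 49 members were lower in A673, where 51.7% of genes were, and 41 of 50 in SKNMC, where 62.7% were. The median log2 differences were -0.23 in A673, against -0.02 for all genes, and -0.34 in SKNMC, against -0.14. In both lines 29 of 49 members were lower at 200 than at 50 nM, where 46% of genes were, and 7 were higher, where 29.9% were. Those 7 were DDX17, DDX23, DDX39A, DDX49, DDX51, DHX16 and DHX34. Above DMSO at 50 nM in both lines were 5 members, where 21.4% of genes were: DDX24, DDX26B, DDX54, DHX9 and DHX38. All of these but DHX9 were below DMSO at 200 nM in both lines, 4 of 49 members, where 7.03% of genes showed that pattern. With scaling to the ribosomal protein genes 1 member, DDX24, stayed above DMSO at 50 nM in both lines and 3 were higher at 200 than at 50 nM in both lines, where 5.09% and 16.3% of genes were. With the 75th percentile these counts were 16 and 17, where 38.8% and 45.7% of genes were.

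Level and change were also compared across members. Spearman's rho between FPKM with DMSO and the change was 0.42 and 0.38 in A673 (n = 49) and 0.28 and 0.31 in SKNMC (n = 50) at 50 and 200 nM, while over all active genes it was 0.21, 0.18, 0.18 and 0.079. Both measures share the DMSO library. Of the 15 members above 50 FPKM in A673, 0 were called at 50 nM and 1 at 200 nM, where 4.32% and 8.69% of genes of that level were. Among the 25 members between 10 and 50 FPKM the counts were 5 and 10, where 18.4% and 30.7% of genes were. In SKNMC 1 of 13 members above 50 FPKM was called at each dose, where 5.15% and 13.3% of genes were, and 3 and 14 of 28 members between 10 and 50 FPKM, where 16.5% and 32.3% were. The members had a median of 15 exons in the longest annotated transcript, against 8 for all active genes.

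The 2 lines gave like orders of change across the members, with Spearman correlations of 0.86 at 50 nM and 0.84 at 200 nM (n = 49) against 0.84 and 0.82 over all genes, values that share each line's DMSO library. No member differed between the lines by 2-fold in its change with FPKM as deposited. Both doses lay above DMSO in A673 and below it in SKNMC for 3 members, DDX1, DDX39B and DDX41, where 4.46% of genes showed that pattern. The member furthest apart at 200 nM was DDX1, a subunit of the tRNA ligase complex, at 93.2, 95.8 and 101 FPKM in A673 and at 57.4, 41.7 and 31.5 FPKM in SKNMC, a gap of 0.95 in log2 terms. With scaling to the ribosomal protein genes the gap of DDX1 was 1.10, past 2-fold.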

How the data were processed

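RNA-seq values of 6 libraries were analysed, 1 for each of 6 conditions (A673 and SKNMC, each with DMSO, 50 nM and 200 nM THZ1 for 6 h). Conditions came from the labels, where titles write SKMNC for the second line. The table's own title calls its values average expression, and the number of cultures behind a column is not stated. The authors made TruSeq libraries, sequenced both ends of fragments (100-bp reads), ran STAR with the hg19 genome and Ensembl 75 and, per the paper's methods, estimated FPKM with StringTie, whereas the submitters' processing notes name Cufflinks. The FPKM values were used as deposited, and strand use is not stated. The authors' 4 deposited columns of log2 fold changes against DMSO were not used.

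Changes were log2((FPKM + 1) / (FPKM + 1 of DMSO)) in genes above 1 FPKM with DMSO, with 2-fold as threshold. FPKM holds no read counts, so the depth is unknown and no counting interval could be given. Promoters came from RefSeq (GRCh38.p14), by symbol and then by synonym, and are not on the build of the files. Transcript length and exons came from the longest GENCODE transcript. Python 3.11.15, numpy 2.4.6, pandas 2.3.3 and scipy 1.17.1 were used, and the steps were tested on simulated data. Alternatives were a pseudocount of 0.1, filters of 5 FPKM or none, a 1.5-fold threshold, leaving out members listed at 0, and scaling to a common sum, to the 75th percentile of active genes or to 79 ribosomal protein genes.

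Members and role groups were chosen with earlier results of these data known. Named were the 5 lowest and 5 highest changes per line and dose, the 5 highest levels, members decreased in both lines or differing at baseline, related pairs, sensors, members at 0 and members of opposite direction in the lines. Other members were named after their values were seen. The Y-linked member is counted and its level is not given.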

Additional observations from a re-analysis of the deposited data

Results flagged for a closer look

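For 3 members both doses lay above DMSO in A673 and below it in SKNMC, where 4.46% of genes active in both lines did so. With 1 library per condition this difference was not tested. DDX1 had log2 fold changes of 0.039 and 0.11 in A673 and of -0.45 and -0.84 in SKNMC, each pair in the order 50 and 200 nM. DDX39B, an export ATPase, had 0.18 and 0.20 in A673 and -0.054 and -0.16 in SKNMC. DDX41, a helicase of the spliceosome, had 0.067 and 0.14 in A673 and -0.012 and -0.18 in SKNMC, and was at 26.9, 28.3 and 29.8 FPKM and at 30.6, 30.3 and 26.8 FPKM. The opposite directions were kept by DDX1 with scaling to a common sum and to the 75th percentile, by DDX39B with a common sum, and by DDX41 with none of the 3 scalings. With scaling to the ribosomal protein genes all 3 were below DMSO in both lines.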

How the results depend on the processing

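No paired analysis was possible because each condition had 1 library and the labels give no replicate numbers. For the same reason no library could be left out. Of the 11 main results, a count was called moved when it differed from the main one by more than 1.5-fold. A median was called moved when it left the 95% rank interval of the main median across genes, which are not replicates. The medians stayed negative under every setting, while counts have no direction. The common sum, both filters on low values and leaving out members at 0 moved none of the 11 results. With scaling to the ribosomal protein genes the counts of decreased members were 14 and 26 in A673 and 16 and 33 in SKNMC at 50 and 200 nM (21.9%, 36.6%, 26.9% and 50.2% of all genes), the medians were -1.08 in A673 at 200 nM, -0.72 and -1.30 in SKNMC at both doses and -0.52 in SKNMC for 200 against 50 nM, and 11 members differed between the DMSO libraries. With the 75th percentile the medians were -0.17 and -0.33 in A673, -0.098 and -0.31 in SKNMC and -0.098 in SKNMC for 200 against 50 nM, and 7 members, or 14%, were called in SKNMC at 200 nM, where 13.7% of all genes were. A threshold of 1.5-fold gave 18, 26, 16 and 31 members in the same order, and a pseudocount of 0.1 gave 11 in SKNMC at 50 nM (21.9% of all genes). The 75th percentile moved the median of all genes by 0.22, 0.32, 0.25 and 0.47, the ribosomal protein genes by -0.21, -0.33, -0.32 and -0.45, and no filter by 0.17, 0.28, 0.17 and 0.30.

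Pattern counts were tried under other settings chosen after seeing the data. Members lower in all 4 comparisons numbered 37, and 21 with the 75th percentile (32.4% of all genes) and 45 with ribosomal protein scaling (81.1%). Those decreased in both lines numbered 4 at 50 nM and 13 at 200 nM, against 3 and 6 with the 75th percentile (7.24% and 11% of all genes) and 13 and 26 with ribosomal protein scaling (18.2% and 33.5%), and 8 at 50 nM with a pseudocount of 0.1 (15.5%). Decreased in both lines at both doses were 4, against 2, 13 and 8 in that order (4.79%, 15.6% and 12% of all genes). Higher in all 4 were 0, against 9 with the 75th percentile (26.6%) and 1 with a common sum (10.7%). No added standard was named that would show which scaling is nearest to RNA per cell. The FPKM values hold no read counts, so precision at low levels is unknown.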

Other observations

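RNA helicases outside the DDX and DHX names were read as a list of 18, of which 15 were active in A673 and 16 in SKNMC. At 50 and 200 nM 3 and 3 of them were called decreased in A673 and 2 and 5 in SKNMC, where 15.8%, 25.4%, 15.6% and 27.6% of protein-coding genes were called. ZNFX1 was at 4.63, 1.31 and 0.591 FPKM in A673 and at 7.06, 2.93 and 1.04 FPKM in SKNMC. It was called decreased in all 4 comparisons. SNRNP200, the U5 helicase that unwinds U4 from U6, was above DMSO in all 4, with log2 fold changes of 0.37 and 0.25 in A673 and 0.33 and 0.31 in SKNMC, but with scaling to the ribosomal protein genes these were 0.12, -0.16, -0.041 and -0.25.

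The translation initiation helicases differed from each other. EIF4A1 was at 918, 956 and 981 FPKM in A673 and at 387, 376 and 329 FPKM in SKNMC. EIF4A2 was at 175, 86.8 and 106 FPKM in A673 and at 255, 159 and 235 FPKM in SKNMC, lowest at 50 nM in both lines, as DDX17 was. DICER1 was above DMSO at 50 nM and below it at 200 nM in both lines as deposited (above DMSO in SKNMC at 200 nM with the 75th percentile, at 0.41), at 13.4, 18.3 and 6.74 FPKM in A673 and at 16.1, 21.2 and 14.7 FPKM in SKNMC. The sensor IFIH1 was at 8.98, 6.29 and 3.26 FPKM in SKNMC and did not pass 0.523 FPKM in A673.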
